A study of Xenopus laevis with 4 samples.

Results

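Centrosome and cilium genes were picked out of the RNA bisulfite sequencing (BS-seq) site lists of Xenopus laevis embryos by gene name. A row was taken when its gene name, without the copy suffix L or S, began with cep, haus, ift, bbs or ttc and a digit, or with tubg, pcnt, pcm1, cntln, cntrl, cntrob, tctn, ttbk, odf2, cspp1, rpgr, ofd1, sdccag8 or ccp110. At stage 0 this gave 141 of 16233 listed m5C sites, in 50 of 7140 genes. At stage 25 it gave 0 of 45 sites. The name rule used no measured value. However, the rule, the roles and the wider gene lists used below were chosen with earlier results of these data known. The rule also took in 8 ttc genes that share a tetratricopeptide repeat name rather than a place at the centrosome or in intraflagellar transport. They are kept apart as the other ttc genes.

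Bisulfite turns unmethylated cytosine into a base read as T, while 5-methylcytosine (m5C) stays C, so the methylation level of a site is the percent of C among its C and T reads. Polyadenylated RNA came from pools of about 200 embryos (the labels' number) at stage 0 and stage 25, with 2 libraries per stage, and the labels name no genotype or treatment. The deposited lists combine both libraries of a stage, so no value here has a spread between replicates. All tests and the intervals of single sites cover counting error only. A listed site had a level of at least 10%. An unlisted cytosine may have been unmethylated, below that level or too thinly covered. A pool of whole embryos gives 1 average, in which few methylated mRNA copies in every cell and many in a few cells cannot be told apart.

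The centrosome is built on a pair of centrioles surrounded by pericentriolar material, which holds the gamma-tubulin ring complexes that nucleate microtubules. In many cells a centriole also acts as the basal body of a cilium, whose shaft is assembled by intraflagellar transport (IFT) and whose entry is guarded by the transition zone. A frog egg is loaded with maternal mRNA and protein of centrosome components, and the sperm brings the centriole around which the first centrosome of the embryo is assembled. Ciliated cells appear much later, for example in the embryonic epidermis. The L and S suffixes name the copies of a gene in both subgenomes of this allotetraploid frog.

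The first question was how much of the family carried listed sites. Of 150 protein-coding RefSeq names that fit the name rule (assembly Xenopus_laevis_v10.1, used for names alone), 45 had a listed site at stage 0, or 30%. Over all 22203 names with an L or S suffix the share was 23.0%. By role, the centrosome genes (cep, gamma-tubulin ring, augmin, pericentriolar scaffold and other centriole genes) had 29 of 67 names listed (43.3%). The cilium genes (IFT, BBSome, transition zone and tau tubulin kinases) had 9 of 42 (21.4%), and the other ttc genes had 7 of 41 (17.1%). Both pericentriolar scaffold genes and 5 of 9 augmin names were listed, against 1 of 9 names in the BBSome role and 1 of 7 transition zone names. The roles go by gene name, so that cep290.L, for a protein of the transition zone, counts among the centrosome genes. The BBSome role likewise takes in every bbs name, bbs10.L and bbs12.L included, and the tau tubulin kinases take in ttbk1.L and ttbk1.S. Of these, bbs10.L, bbs12.L, ttbk1.L and ttbk1.S had no listed site, which lowers the cilium share. These shares are descriptions, since the lists do not hold the coverage of unlisted genes. A gene listed under another name than its RefSeq symbol would also count as unlisted. Of the 50 members, 45 matched a RefSeq symbol and 1 a synonym (ttc25.L, now odad4.L), whereas cep164.L, cep164.S, cep55-like.L and cep76.L matched none.

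**Figure D1:**
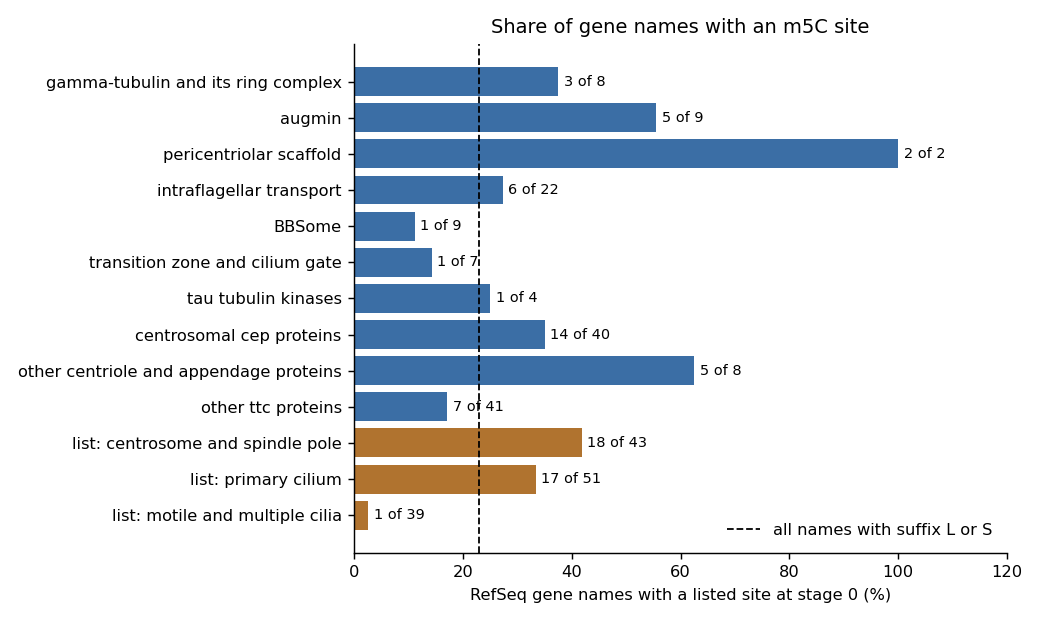
Percent of RefSeq gene names with a listed m5C site at stage 0 (x axis), by role for names that fit the rule (blue bars) and for wider lists of centrosome and cilium genes (brown bars), with counts beside the bars. The dashed line is the 23.0% of all 22203 names with suffix L or S. The centrosome and spindle pole list reaches 41.9% and the motile cilium list, in which ttc25.L is not counted, 2.56%.

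The wider lists of genes outside the name rule were looked up in the same way. Among centrosome and spindle pole genes, 18 of 43 RefSeq names were listed (41.9%). The list contributed 68 sites in 20 listed genes, not all of which matched a RefSeq name, with a median level of 21.6%. The microtubule polymerase ckap5.S had 13 sites between 10.4% and 78.7%, and its copy ckap5.L had 6 sites between 11.5% and 52.7%. The gene of ninein, nin.L, which anchors microtubules at the mother centriole, also had 6 sites, between 11.4% and 42.5%, as did numa1.L, for a spindle pole protein, between 13.8% and 58.3%. Among primary cilium genes, 17 of 51 names were listed (33.3%). The median level was 21.3% over 43 sites in 19 listed genes, again not all matched to a RefSeq name. The most sites were in kiaa0586.L, the frog name of talpid3 (6 sites, 10.8% to 87.3%), and in rp2.S (6 sites, 11.3% to 51.7%). The transition zone genes nphp4.L (14.5% to 32.5%) and cc2d2a.L (12.1% to 49.4%) followed with 4 sites each. Of the genes for motile or multiple cilia, 1 of 39 RefSeq names was listed (2.56%). This was dnaaf3.L, a dynein assembly factor, with 43.1% on 232 reads. A gene named dnah5.S, an axonemal dynein heavy chain whose name had no RefSeq match, added 2 sites on 40 and 46 reads. Its sites lie on chromosome 6L, against the S of its name. The gene ttc25.L, also of motile cilia, had 2 sites but fits the name rule and is not counted here. None of these lists had a site at stage 25.

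As a group, the members' levels were close to those of the whole list. The median level was 21.1% over the 141 sites (95% order-statistic interval 18.4% to 25.6%) and 21.1% over all 16233 sites. This interval reflects the spread between sites and takes them as independent, although many lie in the same gene. The lowest member level was 10%, at a site of cntrl.L, and the highest 96.3%, at a site of ttc7b.L. Levels of 50% or more were found at 21 member sites (14.9%), beside 16.3% of all sites. Levels under 20% were found at 67 member sites (47.5%), beside 47.2% of all. The lower end of the 95% Wilson interval was above 10% at 101 member sites (71.6%), beside 70.6% of all. Coverage was somewhat deeper, with a median of 206 reads (range 31 to 5765) against 146 reads over all sites.

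**Figure D2:**
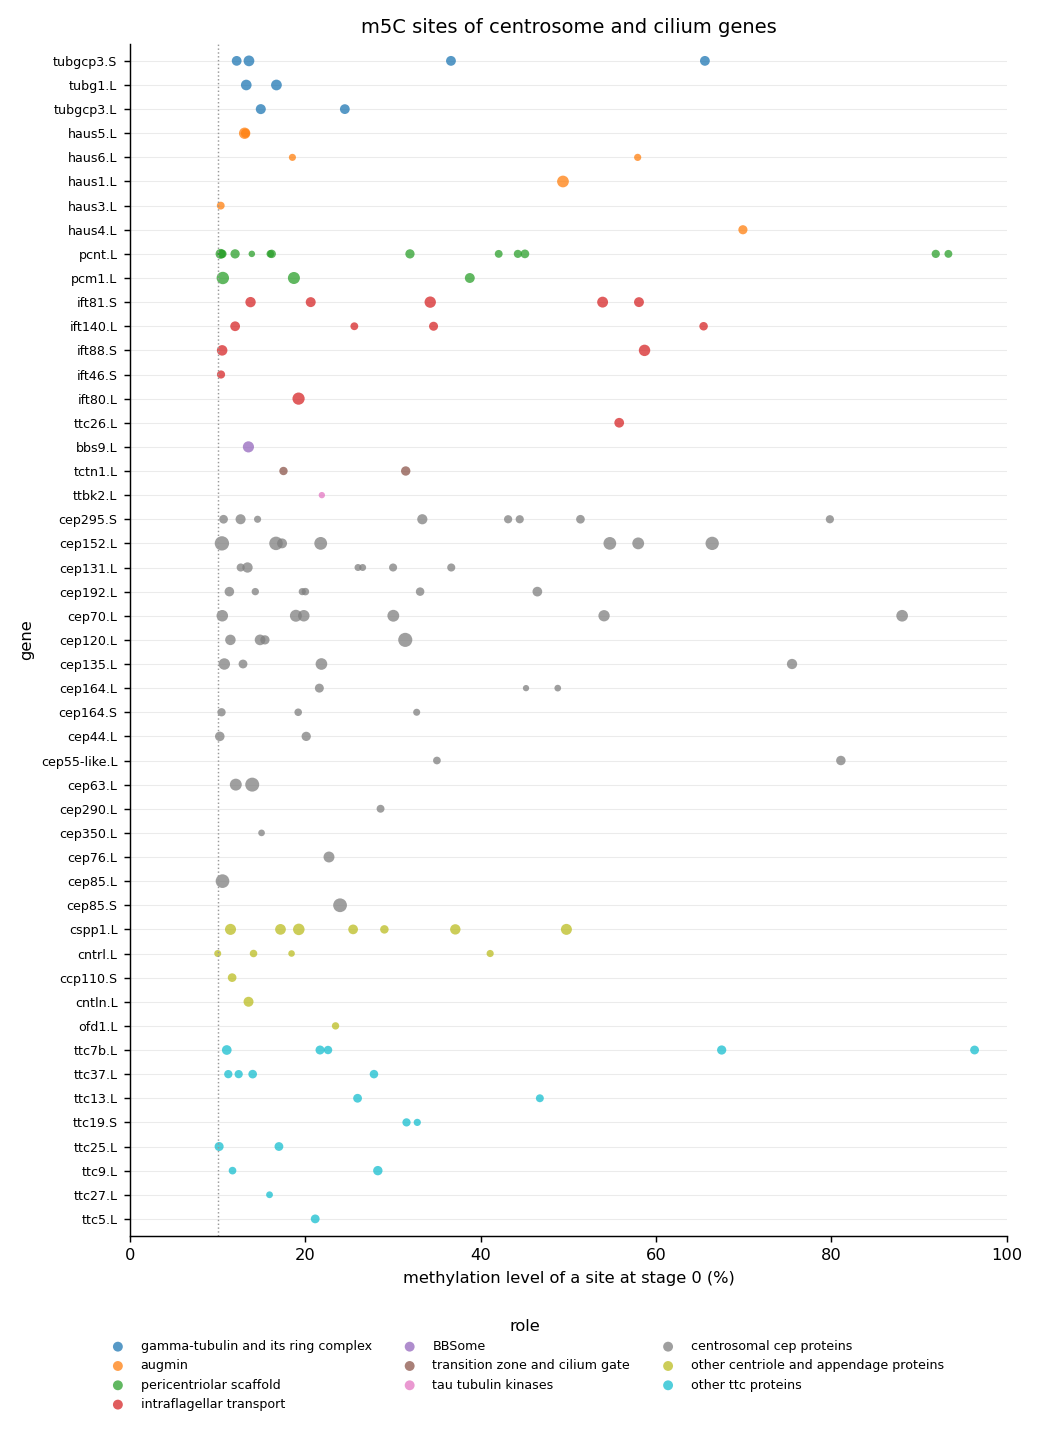
Methylation level in percent (x axis) of the member sites at stage 0, by gene (y axis) and role (colour), with 1 gene of a single site left out. Larger points have more reads, and the dotted line is the 10% minimum of the lists. The level is under 20% at 67 sites, and in some genes 1 or 2 sites stand far above the others, as in pcnt.L at 93.3% and 91.9% and in cep70.L at 88.1%.

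The number of sites per gene was compared next. The members had 2.82 sites per gene, beside 2.27 over all genes. At least 5 sites were found in 9 of the 50 member genes (18.0%), beside 9.73% of all genes. Of the 9 genes, 5 were cep genes, and the others were pcnt.L, cspp1.L, ift81.S and ttc7b.L. A single site was listed in 19 members (38.0%), beside 45.4% of all genes. These differences were not tested, and the lengths of the mRNAs, which could move with the number of sites, were not used here.

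The pericentriolar scaffold came first. Pericentrin, encoded by pcnt.L on the plus strand of chromosome 9_10L, is the large coiled-coil protein that anchors gamma-tubulin ring complexes at the centrosome. It had 13 sites, and 18 genes of the whole list, itself included, had as many or more. In 5′ to 3′ order the levels were 16.0%, 13.9%, 93.3%, 44.2%, 91.9%, 10.4%, 45.0%, 42.0%, 10.5%, 12%, 31.9%, 10.3% and 16.2%, on 36 to 339 reads each. The high pair stood out of the rest: 84 of 90 reads were C at position 71612082 (95% Wilson interval 86.2% to 96.9%), and 102 of 111 at position 71619664 (85.3% to 95.7%). All 11 other sites were at or below 45.0%. The sharpest step lay between position 71619664 and position 71619673, only 9 nt apart, where the level dropped from 91.9% to 10.4% (Fisher's exact test, adjusted p = 6.55e-38). The gene of PCM1, the organiser of centriolar satellites, had 3 sites in pcm1.L on chromosome 1L, at 18.7% (1252 reads), 38.8% (320 reads) and 10.6% (1597 reads). All 3 of its pairs of sites differed by Fisher's exact test, beside 58.0% of such pairs over all genes, where coverage was mostly lower.

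The 18 cep genes held 59 sites, with a median level of 21.7% and a median coverage of 254 reads. CEP152 recruits the kinase PLK4, which starts centriole duplication. Its gene cep152.L (chromosome 3L, minus strand) had 7 sites on 323 to 5765 reads, with levels in 5′ to 3′ order of 54.7%, 16.6%, 66.4%, 58.0%, 10.5%, 21.7% and 17.3%. The sites fell into 3 high ones, with intervals that ended no lower than 52.5%, and 4 low ones, with intervals that ended no higher than 23.6%. The site at position 94130293 was the most deeply covered of all members, at 10.5% (9.71% to 11.3%, 5765 reads). CEP63, the partner of CEP152, had 2 low sites in cep63.L, at 13.9% (13.0% to 15.0%, 4521 reads) and 12.1% (10.3% to 14.1%, 1169 reads). They did not differ by the test (Fisher's exact test, adjusted p = 0.157, difference of 1.87 percentage points).

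CEP295, which is needed for a new centriole to become a centrosome, had 8 sites in cep295.S on the unplaced Scaffold117. The levels ran 33.3%, 12.6%, 51.4%, 44.4%, 10.7%, 79.8%, 43.1% and 14.5%, on 55 to 378 reads. The highest, at position 41626 (71.3% to 86.3%), lay 125 nt from the lowest, at position 41751 (6.67% to 16.6%). These neighbours differed by 69.1 percentage points (Fisher's exact test, adjusted p = 6.69e-30). CEP135, a cartwheel protein of the centriole, had 4 sites in cep135.L on chromosome 1L. Levels were 21.8%, 10.8%, 75.5% (71.1% to 79.5%, 400 reads) and 12.9%, so that 1 site stood far above the other 3. Taking 1 pair per gene, the contrast between the second and the third had the smallest p after those in cep152.L and cep70.L (Fisher's exact test, adjusted p = 2.44e-116).

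CEP70, a centrosomal protein that binds gamma-tubulin, showed the highest level of any cep gene. In cep70.L (chromosome 9_10L, minus strand) 6 sites lay within 5289 nt, at 10.5%, 19.8%, 30%, 88.1%, 18.9% and 54.1%, all on 788 to 1200 reads. Coverage was thus nearly even while levels ranged over 77.5 percentage points. The site at position 45297376 had 870 C reads of 988 (85.9% to 89.9%) and differed from the first site beyond counting error (Fisher's exact test, adjusted p = 1.34e-279). CEP192, which recruits pericentriolar material and Aurora A, had 6 sites in cep192.L between 11.3% and 46.5% on 56 to 282 reads. CEP131, a protein of centriolar satellites, had 6 sites in cep131.L between 12.6% and 36.6% on 49 to 418 reads. CEP120, which works in centriole elongation, had 4 sites in cep120.L. Of these, 3 lay between 11.4% and 15.4%, and the 3′-most, at position 170668731, had 31.4% (30.1% to 32.7%, 4938 reads).

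In cep55-like.L, a gene named after CEP55, which acts at the midbody in the last step of cell division rather than at centrioles, 2 sites lay 104 nt apart. The levels were 81.1% (75.7% to 85.5%, 243 reads) and 35.0% (25.5% to 45.9%, 80 reads). CEP164 marks the distal appendages that dock a centriole to the membrane, and its copies had 3 sites each. CEP290 of the transition zone had 1 site in cep290.L, at 28.6% (20.3% to 38.6%, 91 reads). The genes cep44.L, with 2 sites, and cep76.L and cep350.L, with 1 site each, had levels between 10.2% and 22.7%.

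The other centriole genes were led by cspp1.L on chromosome 6L, whose protein binds microtubules of spindle and cilium. Its 7 sites had levels in 5′ to 3′ order of 49.8%, 37.1%, 17.2%, 19.2%, 25.4%, 11.5% and 29.0%, on 131 to 904 reads. The 5′-most site was the highest. By Fisher's exact test 18 of the 21 pairs of its sites differed, beside 58.0% of such pairs over all genes. Over all genes the smaller coverage of a pair had a median of 110 reads. Centriolin, encoded by cntrl.L, had 4 sites of 10% to 41.1% on 38 to 71 reads, so its intervals were wide. The genes cntln.L, ofd1.L and ccp110.S had 1 site each. CCP110 caps centrioles and holds back cilium formation, and its site had 11.6% (7.40% to 17.9%, 146 reads).

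**Figure D3:**
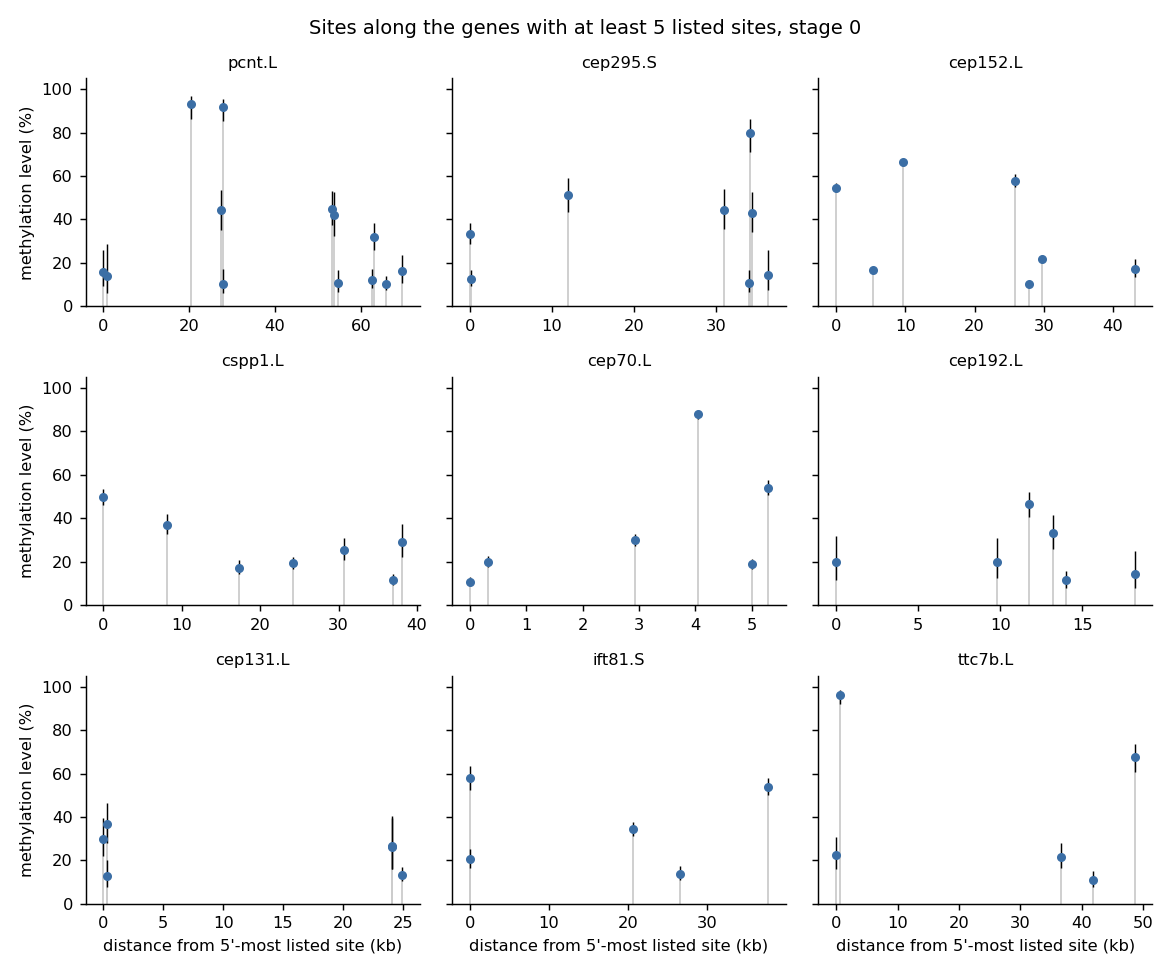
Methylation level (y axis, percent) of each site along the 9 member genes with at least 5 listed sites, against the distance in kb from the 5′-most listed site on the genome, introns included (x axis). Bars are 95% Wilson intervals from read counts. High and low sites lie along the same gene: in cep152.L the levels run 54.7%, 16.6%, 66.4%, 58.0%, 10.5%, 21.7% and 17.3%, and in cep70.L the fourth site stands at 88.1%.

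Next came the genes of microtubule nucleation. Gamma-tubulin itself, tubg1.L, had 2 low sites on Scaffold30, at 16.7% (13.8% to 20.1%, 545 reads) and 13.3% (10.6% to 16.5%, 513 reads). These sites did not differ by the test (Fisher's exact test, adjusted p = 0.182). The ring complex subunit tubgcp3 was listed in both copies. In tubgcp3.S on chromosome 2S the levels were 13.6%, 65.6%, 36.6% and 12.2% on 296 to 553 reads, and in tubgcp3.L on chromosome 2L they were 14.9% and 24.5% on 342 and 298 reads. The site of 65.6% at position 97960636 (60.0% to 70.7%) in the S copy lay above every site of the L copy, with no overlap of intervals. The S site of 36.6% also lay above both L sites, while those of 13.6% and 12.2% lay below both, so the ranges of the copies overlapped. Augmin brings ring complexes to microtubules inside the spindle. Its genes haus1.L and haus4.L had single sites of 49.4% (46.3% to 52.4%, 1041 reads) and 69.9% (63.1% to 75.9%, 196 reads). In haus6.L the levels were 18.5% and 57.9% on 54 and 57 reads, which differed (Fisher's exact test, adjusted p = 8.25e-05). In contrast, haus5.L had 13.2% and 13.1% on 190 and 811 reads, and haus3.L had 10.3% on 87 reads.

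Of the cilium genes, those of IFT had the most sites. IFT-B carries cargo to the ciliary tip, and IFT-A serves the way back. The IFT-B gene ift81.S (chromosome 1S) had 5 sites, at 58.0%, 20.6%, 34.2%, 13.7% and 53.9% on 317 to 812 reads, with the highest levels at both ends. In ift88.S the levels were 58.7% (55.3% to 61.9%, 847 reads) and 10.5% (8.06% to 13.6%, 476 reads), a difference of 48.2 percentage points (Fisher's exact test, adjusted p = 3.74e-71). The other IFT-B genes had 1 site each. The level was 55.8% (50% to 61.4%, 285 reads) in ttc26.L, which encodes IFT56, 19.2% in ift80.L (17.2% to 21.4%, 1410 reads) and 10.4% in ift46.S (5.89% to 17.6%, 106 reads). The IFT-A gene ift140.L (chromosome 9_10L) had 34.6%, 25.6%, 12% and 65.4%, and its last 2 sites, 67 nt apart, differed most (Fisher's exact test, adjusted p = 1.37e-27). Over the 14 IFT sites, in 6 genes, the median was 29.9%, beside 21.1% over all sites. Levels of 50% or more were found at 5 of them (35.7%), beside 16.3% of all sites. This difference was not tested, and ift81.S and ift140.L gave 5 and 4 of the 14 sites.

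The remaining cilium roles had 4 sites. The BBSome, a cargo adaptor of IFT, was listed by bbs9.L alone, with 13.5% (11.2% to 16.2%, 711 reads). The transition zone gene tctn1.L had 31.4% (25.8% to 37.7%, 229 reads) and 17.5% (11.7% to 25.3%, 120 reads). TTBK2, the kinase that releases CCP110 to start ciliogenesis, had 21.9% in ttbk2.L on 32 reads (11% to 38.8%). Among the RefSeq names without a listed site were rpgr.S, rpgrip1l.L, tctn2.L and tctn3.L of the cilium gate, and the gamma-tubulin complex genes tubgcp2.L, tubgcp4.L, tubgcp4.S and tubgcp6.L. No gene named cntrob or sdccag8 was in the lists, nor was either among the suffixed RefSeq names that fit the rule.

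The 8 other ttc genes held 19 sites. The highest level of all members was in ttc7b.L (chromosome 8L, minus strand), whose protein is known in mammals as part of the complex that places a lipid kinase at the plasma membrane. Its levels were 22.6%, 96.3%, 21.7%, 11% and 67.5% on 124 to 281 reads, and 157 of 163 reads were C at position 64407445 (92.2% to 98.3%). That site differed from the site of 11% by 85.3 percentage points (Fisher's exact test, adjusted p = 1.14e-77). In ttc37.L, a subunit of the Ski RNA decay complex, 4 sites had 11.2% to 27.8%. The gene ttc25.L, for a docking factor of the outer dynein arm of motile cilia, had 17.0% and 10.2% on 159 and 187 reads. In ttc19.S, a gene of mitochondrial respiration, both sites were near 32% (31.5% and 32.8%). The genes ttc5.L, ttc9.L, ttc13.L and ttc27.L had 6 sites together, between 11.7% and 46.7%.

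How much levels varied within a gene was then tested. All pairs of sites of the same gene were compared by Fisher's exact test on C and T reads, with Benjamini-Hochberg adjustment over the 22085 pairs of the whole stage 0 list. Among members, 188 of 271 pairs in 31 genes differed at an adjusted p under 0.05 (69.4%), beside 58.0% of all pairs. The smaller coverage of a pair had a median of 116 reads in members and 110 over all pairs. The median difference between the sites of a pair was 19.9 percentage points in members and 13.9 over all pairs. Pairs of a gene share sites, and pcnt.L alone gave 78 of the 271 pairs. Without pcnt.L the count was 138 of 193 (71.5%), beside 58.0% of all pairs. The smaller coverage of a pair then had a median of 163 reads, so these shares were not matched for depth. With a coverage minimum of 100 reads, pcnt.L included, 140 of 181 member pairs differed (77.3%), beside 68.5% of all pairs. At least 1 pair differed in 26 of the 31 genes, beside 2873 of 3876 genes over the whole list. The 5 genes in which none did were cep63.L, haus5.L, ttc19.S, ttc25.L and tubg1.L, with 2 sites each. The smallest p-values were in cep152.L, where the contrast between positions 94148502 (66.4%) and 94130293 (10.5%) was 1 of 3 with an adjusted p too small for the software to store. Of the 188 pairs, the site nearer the 5′ end was the higher one in 111 (59.0%), beside 50.7% over all pairs that differed. Without pcnt.L the share was 56.5%.

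**Figure D4:**
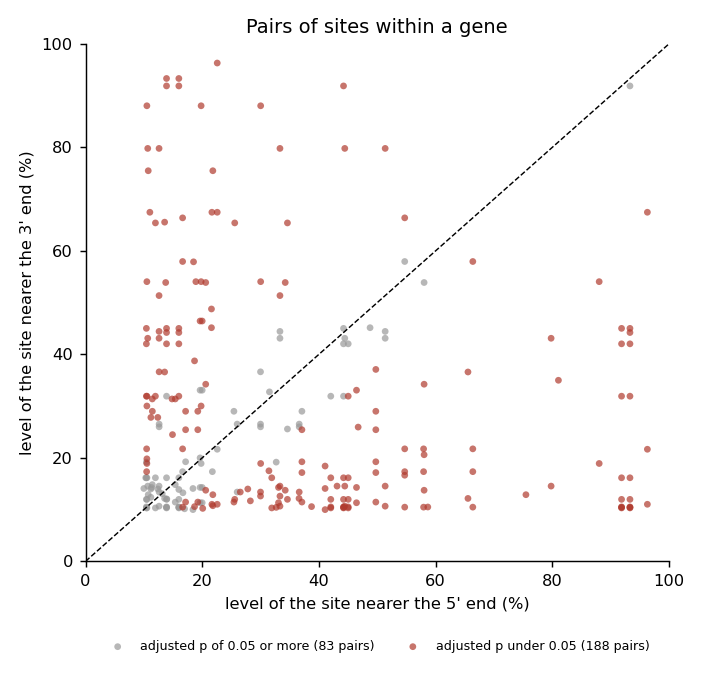
Level of the site nearer the 5′ end (x axis, percent) against the level of the site nearer the 3′ end (y axis, percent) for the 271 pairs of sites within member genes at stage 0. Red points are the 188 pairs that differed by Fisher's exact test at an adjusted p under 0.05, grey points the other 83. The dashed line marks equal levels, and red points lie on both sides of it, with levels up to 85.3 percentage points apart.

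Some of these contrasts lay very close together. Another site of the same gene within 50 nt was found for 14 member sites (9.93%), beside 11.4% of all sites. They formed 7 pairs. In cep131.L both of its adjacent pairs were 1 nt apart, with 12.6% and 36.6% at positions 22013268 and 22013269 (Fisher's exact test, adjusted p = 0.000190), and with 26.0% and 26.5% at positions 22037070 and 22037071 (adjusted p = 1 in the same exact test). Sites 37 nt apart in ift81.S had 58.0% and 20.6% (Fisher's exact test, adjusted p = 5.99e-22), and sites 14 nt apart in tubgcp3.S had 65.6% and 36.6% (Fisher's exact test, adjusted p = 3.35e-12). In ttc37.L, 2 nt separated 27.8% from 14% (Fisher's exact test, adjusted p = 0.00950). In cep120.L, 21 nt apart, levels of 11.4% and 14.8% did not differ by the test (Fisher's exact test, adjusted p = 0.196). Such sites are largely covered by the same reads, which the test takes as separate. Pairs somewhat farther apart can share reads too, as those in ift140.L (67 nt), cep55-like.L (104 nt) and cep295.S (125 nt).

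Listing of the L and S copies was compared next, without a test. Of the 50 members, 40 were L copies and 10 were S copies, so L made up 80%, beside 58.2% of all listed genes with a suffix. L names also made up 68.7% of the RefSeq names that fit the rule. Of these, 36 of 103 L names (35.0%) and 9 of 47 S names (19.1%) were listed, whereas over all suffixed names the shares were 23.3% and 22.5%. The suffix matched the chromosome for all 47 member genes on chromosomes, and 3 lay on unplaced scaffolds. For 16 members RefSeq also named the other copy, and it was listed for 4 of them (25.0%), beside 51.4% of all such listed genes. The 4 were the copies of cep85 and tubgcp3, so each pair counts from both sides, as it does over all genes. The copies of cep164 were both listed but matched no RefSeq name, so they are not among the 16. Other copies not listed under their RefSeq name included those of ccp110, cep152, cep350, haus6, ift81, ttbk2, ttc13, ttc5, ttc7b, ttc9 and tubg1. A copy listed under another name would be missed here, and 1380 of the 7140 listed genes carried no suffix. The coverage of unlisted copies is not known.

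Where both copies were listed, their levels were set side by side without a test, because which cytosine of one copy matches which of the other was not worked out here. CEP85 had 1 deeply covered site in each copy, at 10.5% (9.59% to 11.6%, 3670 reads) in cep85.L (chromosome 2L, position 59057908) and at 24.0% (22.6% to 25.3%, 3912 reads) in cep85.S (chromosome 2S, position 62799403). These intervals were apart at nearly the same coverage. In cep164.L the levels were 21.6%, 48.8% and 45.2% on 176, 41 and 31 reads, and in cep164.S they were 32.7%, 10.4% and 19.2% on 52, 115 and 73 reads. The range of levels in the cep164 copies overlapped. Over all member sites the median was 20.0% in the 113 sites of L copies and 32.1% in the 28 sites of S copies. Over all L and S sites it was 20.9% and 21.5%. The member means were closer, at 28.2% for L and 31.3% for S. The S sites came from 10 genes, and cep295.S and ift81.S gave 8 and 5 of the 28.

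Last, the stages were compared. None of the 50 genes had a site in the stage 25 list, so none of the 36 sites listed at both stages was a member and no change in level could be tested. The stage 25 list was short, with 45 sites in 41 genes on 21 to 3890 reads. At the members' share of the stage 0 list, 0.869%, a list of 45 sites would hold 0.391 member sites, so the absence of members there shows nothing about these genes.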

How the data were processed

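The members, roles and wider gene lists were chosen with earlier results of these data known. Per the labels and methods, the authors trimmed reads with cutadapt and Trimmomatic, mapped them to the converted X. laevis v9.2 genome with HISAT2 and the remaining reads to the converted transcriptome with Bowtie2, discarded reads rich in C, and listed sites by coverage, level and conversion rate. The deposited lists hold 1 combined row per site and stage: the coverage (counts of C and T reads, not normalized), the level as a fraction, given here in percent, and the authors' p-value of the call, which was not used. C reads are coverage times level, whole within 0.0001 reads at every site. The study calls its replicates technical in 1 place and biological in another. The titles of the stage 25 libraries carry another species prefix than their organism label, which was followed.

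Positions are those deposited, on v9.2; the sources used here do not say if counting starts at 0 or 1. Levels have 95% Wilson intervals, with a median half-width of 5.35 percentage points in members. Since no molecular identifiers were read, PCR copies of 1 molecule can count more than once. Within-gene pairs were tested by Fisher's exact test (two-sided, Benjamini-Hochberg over all pairs, threshold 0.05), ordered 5′ to 3′ by strand. The test was tried on simulated pairs with independently drawn reads. Shared reads, PCR copies and spread between replicates were not simulated. Genes were named by the number of sites, lower Wilson bound, coverage, role, listing of both copies and smallest pair p, and the remaining members to complete each role. Sequences around sites, exons and UTRs were not used here, as no genome of the build was at hand. Tests ran in scipy 1.17.1 under Python 3.11.15, tables in pandas 2.3.3, arrays in numpy 2.4.6, and plots in matplotlib 3.10.9. The values of 1 member gene are not reported here, though the counts and medians include it.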

Additional observations from a re-analysis of the deposited data

How the results depend on the processing

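No paired analysis was possible because the lists hold 1 combined value per site and stage. For the same reason no replicate could be left out. With a level minimum of 20%, the members kept 74 of 141 sites and their median rose to 36.6% (36.2% over all sites), which follows from the removal of the lower levels. The pooled level, C reads over all reads, was 26.6% in members and 29.3% over all sites. A coverage minimum of 100 reads left 109 sites with a median of 20.6%, and leaving out the other ttc genes left 122 sites with a median of 20.3%. Of pairs of neighbouring sites, 67 of 91 differed (73.6%, beside 58.2% of all neighbours), which is a smaller count because fewer pairs were tested. With Bonferroni adjustment 130 of 271 pairs differed (48.0%, beside 35.2% of all). Pairs at least 200 nt apart were an alternative added after seeing the data, like that without pcnt.L. Of such pairs in members, 179 of 260 differed (68.8%, beside 57.8% of all). No member was listed at stage 25 when matched by site or by gene.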
